A study of Mus musculus with 38 samples.

Results

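Kinesins are the motor proteins that walk along microtubules, and the genes described here are all protein-coding entries of the deposited table whose symbol is Kif followed by a number, with or without a letter from a to c, or Kifc followed by a number. The rule uses names alone and gave 39 genes of the 23125 in the table, of which 16151 are protein-coding. Kinesins with other names, such as Cenpe, are therefore not members.

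A kinesin converts ATP into movement along a microtubule, carrying cargo, sliding microtubules past each other, or taking tubulin off their ends. During division, members of the family separate the spindle poles, push chromosome arms, trim kinetochore fibres and build the midzone at which the cell is cut, while other members carry vesicles, organelles and ciliary material in non-dividing cells. The fully grown mouse oocyte and the early embryo are largely silent in transcription until the two-cell stage, so new motor protein depends mostly on stored mRNA being loaded onto ribosomes.

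RNA from polysomes, where several ribosomes sit on each mRNA, was compared with RNA from outside polysomes in ICR mouse oocytes and embryos. There were 6 stages: GV (germinal vesicle oocytes in meiotic prophase), MII (oocytes in the second meiotic metaphase) and 4 embryo stages. The embryos were zygotes and two-cell embryos, each before division and in mitotic M-phase, the latter written as zygote M and two-cell M. Of 10 sucrose gradient fractions, the 5 heavier ones were pooled as the polysome library and the 5 lighter ones as the non-polysome library, with 3 libraries in each of the 12 groups. Females were at least 6 weeks old and primed with gonadotropin, and GV oocytes were held in IBMX, which blocks meiotic resumption. MII oocytes were matured in culture for 12 h, whereas zygotes came from mated females, also given hCG, and were cultured to the two-cell stage. Zygote M and two-cell M embryos were arrested with 10 µM nocodazole, a drug that depolymerises microtubules, and all material was treated with cycloheximide before lysis. M-phase in embryos and nocodazole therefore cannot be told apart in these groups, and MII oocytes are the M-phase group without the drug. Each library pools many oocytes or embryos. The labels name the M-phase of meiosis also for the embryo samples, and the stage was taken from the sample titles.

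Values are FPKM, fragments scaled by exon length and by the mapped total of the library, and the depth of the libraries is unknown. No value lies below 0.01 FPKM, which is called the floor here. FPKM is relative to each library, so less of an mRNA and more of all others cannot be told apart, and neither can fewer embryos and less RNA in each. The log2 values of replicates correlated across genes with r between 0.584 and 0.961. Between 26.2% and 27.3% of genes were at the floor in zygote polysomes, but 47.9% to 58.7% in two-cell M polysomes and 59.9% to 63.1% in the two-cell M non-polysome fraction. All 8 oocyte marker genes on a list (among them Gdf9 and Zp3) averaged at least 1 FPKM in every polysome group, their sum lying between 2754 and 3145 FPKM in GV and between 32.7 and 179 in two-cell M. The summed FPKM of 4 globin genes, which mark red blood cells, was 34.3 to 83.7 in two-cell polysomes and 24.4 to 42.5 in two-cell M polysomes, against 0.04, the sum of 4 floor values, in GV and MII polysomes. In the two-cell non-polysome libraries it was 99.7 to 162 and in those of two-cell M 0.04 to 52.6. Nearly all of it was Hba-a1, with 33.5 to 82.9 FPKM in two-cell polysomes, while Hbb-bt was at the floor and Hbb-bs at most 0.0404 in the two-cell groups. The sum of 7 cumulus and granulosa cell markers reached 4.73 FPKM in MII polysomes and 3.06 in those of two-cell M, and stayed below 1 FPKM on the polysomes of the other 4 stages. Outside polysomes it reached 23.6 in MII and 20.1 in two-cell. Single genes carried these maxima, namely Inha in MII polysomes (4.48) and in 1 MII (23.5) and 1 two-cell (20.1) non-polysome library, and Amh in 1 two-cell M polysome library (2.81). In these 4 groups Cyp19a1 reached 0.240 FPKM (MII polysomes) and Foxl2 1.20 (1 two-cell non-polysome library), and Fshr, Has2 and Tnfaip6 at most 0.0389. The part of red-cell or follicle-cell RNA in the kinesin values was not tested.

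Only a few kinesin mRNAs were abundant, and on polysomes a pair of genes carried most of the signal. Kif22 and Kif17 together held between 51.7% and 73.1% of the summed kinesin FPKM in every polysome library outside two-cell M, where the share was 32.5% to 62.65%. Outside polysomes their share was 6.82% to 24.9% in GV, 49.4% to 70.95% in MII, 37.97% to 45.2% in zygote, 18.7% to 58.4% in zygote M, 21.2% to 84.75% in two-cell and 0.464% to 65.4% in two-cell M. The summed kinesin FPKM was 29.0 to 38.7 in GV polysomes and 90.4 to 105.9 in MII, then 43.3 to 54.1 in zygote, 20.2 to 23.3 in zygote M, 18.0 to 24.1 in two-cell and 9.56 to 27.7 in two-cell M. These levels describe the libraries and carry no test.

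**Figure D1:**
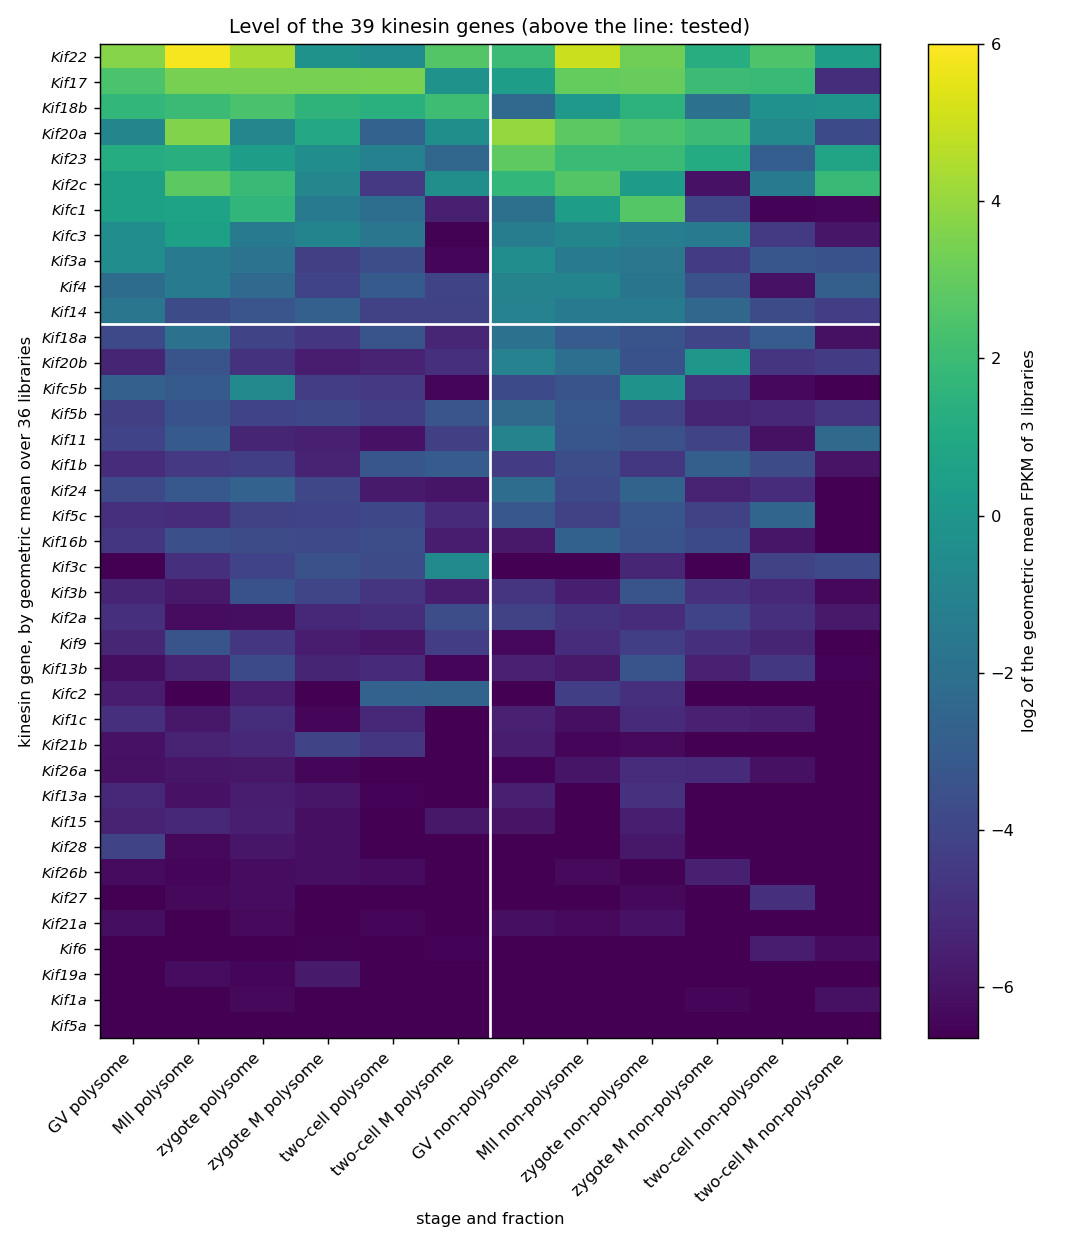
Rows are the 39 kinesin genes in order of their geometric mean over 36 libraries, columns the 12 groups of 3 libraries, and colour the log2 of the group's geometric mean FPKM. Kif22 and Kif17 lead, the 11 genes above the white line were tested, and most genes below it lie near the floor.

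A gene was tested when its geometric mean over all 36 libraries was at least 0.1 FPKM, which kept 7967 genes and 11 of the 39 kinesins. That is 28.2% of the family, against 39.6% of all protein-coding genes. By geometric mean, the tested members were Kif22 at 5.74, Kif17 at 3.44, Kif18b at 1.61, Kif20a at 1.48, Kif23 at 1.32, Kif2c at 0.921, Kifc1 at 0.280, Kifc3 at 0.228, Kif3a at 0.151, Kif4 at 0.147 and Kif14 at 0.138 FPKM. Just below the limit stood Kif18a at 0.0773 and Kif20b at 0.0741. By role, of the genes assigned to chromosome movement 2 of 3 were tested, of the cytokinesis genes 3 of 4, of the depolymerases 2 of 5, of the spindle assembly genes 1 of 4, of the transport genes 3 of 17, and of the cilium and other genes 0 of 6. Of all 39 members, 22 never reached 1 FPKM in any library, and Kif5a, a conventional kinesin of neurons, was listed at the floor in all 36.

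The 28 members that were not tested include motors with central roles in division. Kif11, which slides antiparallel microtubules apart and drives spindle bipolarity, had 0.227 to 1.01 FPKM in the GV non-polysome fraction and at most 0.672 in any polysome library. Kif15, which can share that task, never exceeded 0.0842 FPKM. Kif20b, a midbody kinesin, reached 0.599, 0.685 and 2.64 FPKM in the 3 zygote M non-polysome libraries. Kif3c, a relative of Kif3b that pairs with Kif3a, had 0.240, 0.665 and 1.63 FPKM in two-cell M polysomes while lying at the floor in 19 of 36 libraries. Its highest value, 3.35 FPKM, was the highest of any untested member and came from 1 two-cell M non-polysome library whose other 2 replicates were at the floor. At such levels the replicates of one group could lie far apart, as with Kif11 in two-cell M outside polysomes, at 0.0126 to 0.883 FPKM.

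The median length of all exons joined was 4582 bases for the 11 tested kinesins and 7209 for the others, against 3676.5 and 4334 for protein-coding genes. Of the kinesins longer than 6000 bases, 2 of 23 were tested (30.5% of protein-coding genes of that length). Between 4000 and 6000 bases it was 6 of 10 (41.6%), and between 2500 and 4000 bases 3 of 6 (44.3%). Across genes, the rank correlation of this length with the geometric mean FPKM was -0.27 over the 39 kinesins and -0.11 over the protein-coding genes. FPKM divides by length, and the libraries share one preparation, so this is a description only.

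The ends of the 3′ UTRs are shown because stored oocyte mRNAs are switched on by cytoplasmic polyadenylation, which needs a polyadenylation hexamer and, nearby, a cytoplasmic polyadenylation element (CPE) to which CPEB1 binds. The letters searched on the transcript strand were TTTTAT and TTTTAAT for the CPE, in the last 100 bases, and AATAAA or ATTAAA for the hexamer. Capitals mark these matches in the windows of 30 bases below, read from the GRCm38 genome at the ends of GENCODE M21 transcripts. All lie in 3′ UTR exons, on the minus strand for Kif22 (chr7:127027731-127027760), Kif2c (chr4:117159643-117159672), Kif23 (chr9:61917285-61917314), Kif18b (chr11:102905548-102905577) and both Kifc1 windows (chr17:33875712-33875741 and chr17:33875672-33875701), and on the plus strand for Kif20b (chr19:34975700-34975729) and Kif18a (chr2:109341707-109341736).
Kif22: acgtgttgtgtaaatacagtTTTTATtcca
Kif2c: gctgtacctaacAATAAAgaaagaagaaaa
Kif23: caaaacaactgaAATAAAaaggcactaaga
Kif18b: tttggctgtaatAATAAAcatctctgtctt
Kifc1, first window: gttgagacatgaTTTTATtgggtgaacaat
Kifc1, second window: taatcaactataAATAAAgaataatctgtt
Kif20b: gtatataaTTTTAATtcAATAAAtatatca
Kif18a: aataTTTTATtacttggtatATTAAAgatg

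Kif22, the most abundant member, has an annotated 3′ UTR of only 62 bases, with 1 TTTTAT and no hexamer. Kif17, the second, has one of 65 bases with neither. Among the other 9 tested members 1, Kifc1, had a CPE in its last 100 bases and 7 had a hexamer within its last 40. Over the 36 members with at least 100 bases of 3′ UTR, 9 (25.0%) had a CPE and 27 (75.0%) a hexamer, and over all 19324 genes with such a UTR the shares were 17.9% and 73.6%. Kif20b and Kif18a, neither of them tested, are shown as members in which both motifs stand within 30 bases. A match describes letters in an annotated transcript end, and the ends used in these oocytes were not measured.

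**Figure D2:**
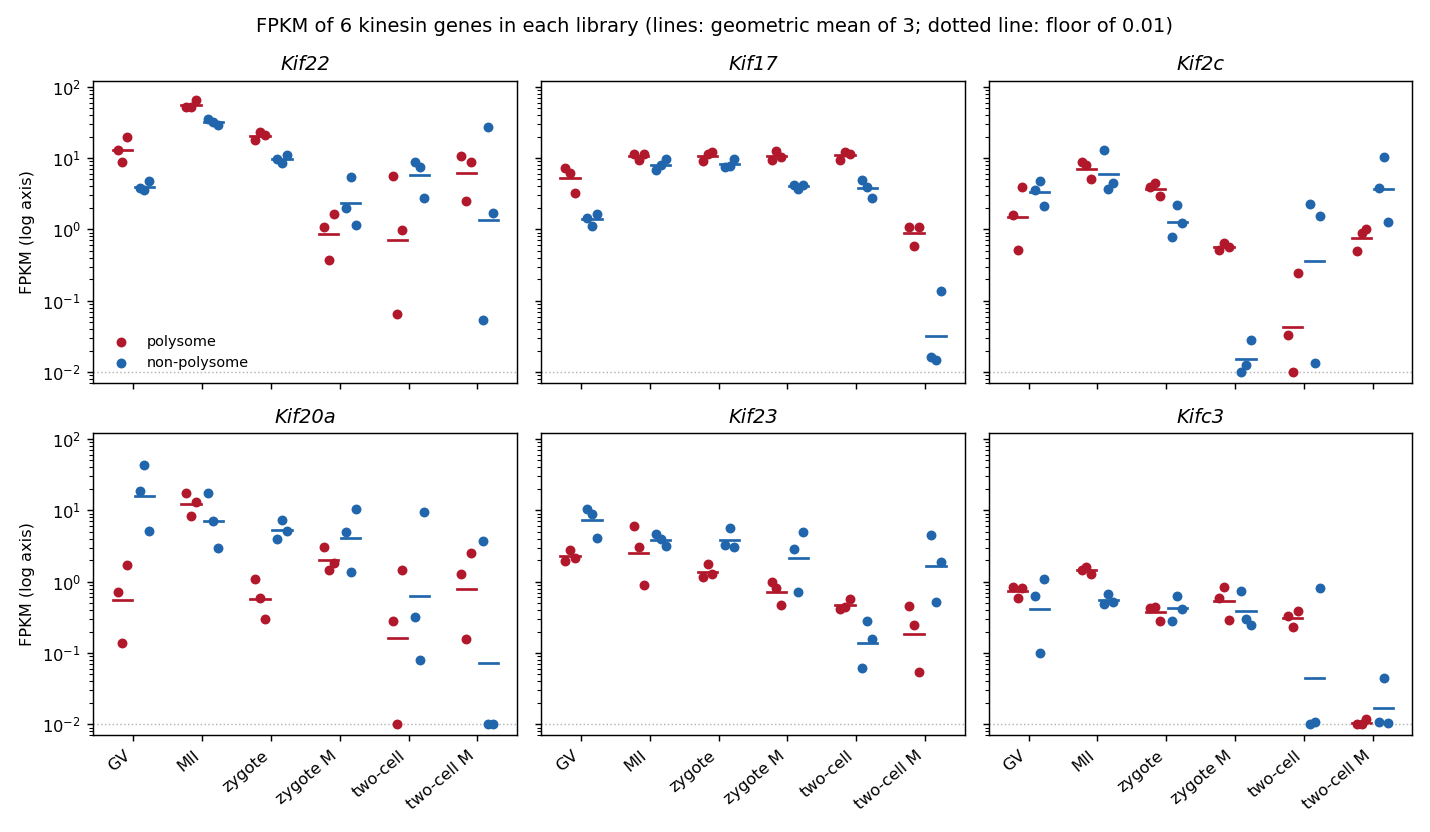
Each point is the FPKM of 1 library (log axis) for 6 kinesins at the 6 stages, in red for polysomes and blue for the non-polysome fraction, with a line at the geometric mean of 3. Kif22 peaks in MII polysomes and is low in zygote M, Kif17 on polysomes varies little from MII to two-cell, and Kifc3 is at the floor or near it in two-cell M.

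Differences between groups were tested by limma on log2 FPKM in one fit over all 36 libraries, with Benjamini-Hochberg adjustment over the 7967 genes, and a gene was called at an adjusted p below 0.05 with a change of more than 2-fold. All changes below are log2 fold changes with their standard errors.

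Kif22 (chr7:127027729-127042471 of GRCm38) binds DNA and moves along spindle microtubules, pushing chromosome arms outwards. Its polysome level was 12.8, 8.75 and 19.8 FPKM in GV and 52.4, 51.8 and 64.95 in MII. In zygote it was 17.7, 23.2 and 21.0, and in zygote M 1.09, 0.374 and 1.63. MII thus lay above GV and zygote M below zygote, with no overlap in either pair. In two-cell the 3 polysome libraries spread from 0.0649 to 5.56 FPKM, and in two-cell M they held 10.7, 2.53 and 8.865. The fall in zygote M was called, at -4.56 ± 1.35 (adjusted p = 0.0413), whereas the difference of 2.11 ± 1.35 between MII and GV was not (adjusted p = 0.448). This MII against GV difference was called with 1 FPKM added and in a fit of only the MII and GV polysome libraries. The call in zygote M did not survive leaving out any one of the 6 libraries (A, B or C of zygote M, B, C or D of zygote), with values from -5.01 to -3.95 and adjusted p from 0.0579 to 0.202, nor the fit without a filter on low values or with a block for the replicate letter.

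The difference between the divisions was itself tested for Kif22. The M-phase change in zygotes was -6.66 ± 1.91 relative to that in oocytes (adjusted p = 0.0238), and the change in two-cell embryos was higher than that in zygotes by 7.69 ± 1.91 (adjusted p = 0.00431). The first was lost, with adjusted p between 0.0516 and 0.0726, without GV polysome replicate B, MII replicate C, zygote replicate C or zygote M replicate B, while the second was called in all 12 fits that left out a library. MII polysomes held more Kif22 than zygote M polysomes by 6.01 ± 1.35 (adjusted p = 0.00287), a call kept in all 6 such fits. GV against two-cell gave 4.20 ± 1.35 (adjusted p = 0.0319), but of the fits that left out a library only the one without two-cell polysome replicate A kept this call, and without replicate B it was 2.47 (adjusted p = 0.25). It was also lost without a filter on low values (adjusted p = 0.0511) and in a fit of only the groups compared (adjusted p = 0.0863). MII against two-cell M gave 3.18 ± 1.35 (adjusted p = 0.0493), and leaving out any one of the 6 libraries raised the adjusted p above 0.05, as did quantile normalization.

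Outside polysomes Kif22 followed a similar order from GV to zygote M. It had 3.76, 3.51 and 4.70 FPKM in GV, 35.0, 32.2 and 29.4 in MII, 9.59, 8.603 and 10.9 in zygote, and 2.02, 5.49 and 1.15 in zygote M. The two-cell M non-polysome libraries spread wider than any other group of Kif22 values, with 0.0544, 27.2 and 1.71 FPKM. No polysome against non-polysome difference of Kif22 was called at any stage in the fit over all 36 libraries. The values ran from -3.01 ± 1.35 in two-cell to 2.19 ± 1.35 in two-cell M. The difference in zygote was called in a fit of only the groups compared, and that in two-cell without two-cell polysome replicate A.

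Kif4, a chromokinesin that condenses chromosome arms and shortens midzone microtubules, reached at most 1.15 FPKM in any library. Its level outside polysomes was 0.01, 0.0115 and 0.0300 FPKM in two-cell and 0.104, 1.15 and 0.0229 in two-cell M, and these groups overlapped. The difference of 3.21 ± 1.19 was called (adjusted p = 0.0352), but not without two-cell replicate A or B or two-cell M replicate A or B, where it fell as low as 1.70 (adjusted p = 0.284). It was also lost with 0.1 or 1 FPKM added, at 1.43 and 0.40, without a filter on low values, and in a fit of these 6 libraries alone (adjusted p = 0.286). Kif18a, which dampens chromosome movement at metaphase, was not tested and peaked at 0.692 FPKM.

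Kif2c (chr4:117159639-117182639) takes tubulin off microtubule ends and corrects wrong kinetochore attachments. On polysomes it had 1.58, 0.515 and 3.92 FPKM in GV, 8.76, 8.02 and 5.09 in MII, and 3.92, 4.43 and 2.95 in zygote. Zygote M libraries were tightly grouped at 0.513, 0.645 and 0.561, two-cell libraries lay at 0.0334, 0.01 and 0.244, and two-cell M libraries at 0.493, 0.880 and 1.02. Every two-cell library was thus below every library of the other 5 stages. The rise from two-cell to two-cell M was 4.14 ± 1.28 (adjusted p = 0.0125). Without two-cell polysome replicate B, the library at the floor, it was 3.08 (adjusted p = 0.0917), and it was not called with 1 FPKM added or in a fit of only these 6 libraries. GV exceeded two-cell by 5.09 ± 1.28 (adjusted p = 0.00614), a call lost only without the same library, at 4.03 (adjusted p = 0.0522). The M-phase change in two-cell embryos was higher than that in zygotes by 6.84 ± 1.81 (adjusted p = 0.00681), and this was called in all 12 fits that left out a library.

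In zygote M the level of Kif2c was lower outside polysomes than on them. Outside polysomes its level was 0.770, 2.16 and 1.23 FPKM in zygote and 0.01, 0.0126 and 0.0284 in zygote M, a change of -6.38 ± 1.28 (adjusted p = 0.00133) that was called in all 6 fits without a library but not with 1 FPKM added. All 3 zygote M polysome libraries were higher than these, with a polysome excess of 5.22 ± 1.28 (adjusted p = 0.0276). This excess was kept only without non-polysome replicate C and was lost without any of the other 5 libraries, at adjusted p between 0.0626 and 0.102. It was also lost with 0.1 FPKM added, at 2.52 (adjusted p = 0.136), with 1 FPKM added, at 0.63 (adjusted p = 0.66), and after quantile normalization, at 3.22 (adjusted p = 0.0522). On polysomes the change from zygote to zygote M was -2.70 ± 1.28 (adjusted p = 0.286), and the difference between the changes in the fractions, 3.68 ± 1.81, was not called (adjusted p = 0.669). The polysome change was called with 1 FPKM added, in a fit of only the groups compared and after quantile normalization, at -3.14 in the last (adjusted p = 0.0228). The difference between the changes in the fractions was called in a fit of only the groups compared. The sizes of the non-polysome change and of the excess rest on values near the floor. From two-cell to two-cell M the non-polysome level went from 2.27, 0.0133 and 1.54 to 3.81, 10.3 and 1.25 FPKM. That difference of 3.35 ± 1.28 was called (adjusted p = 0.0403), although without two-cell non-polysome replicate B it was 0.97 (adjusted p = 0.493), and it was also lost without two-cell M replicate A or B, at 3.32 (adjusted p = 0.079) and 2.60 (adjusted p = 0.158). Dropping the filter on low values (adjusted p = 0.0839) or fitting only the groups compared (adjusted p = 0.434) ended this call too.

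Kif18b, which works at the plus ends of astral microtubules together with Kif2c, varied little between the polysome groups. It had 1.80 to 5.65 FPKM on GV polysomes, 3.28 to 4.75 in MII, 4.48 to 6.48 in zygote, 1.81 to 5.30 in zygote M, 1.46 to 5.04 in two-cell and 2.30 to 9.81 in two-cell M. Outside polysomes it ran from 0.0122 to 9.98 FPKM, with wide spread inside groups, as in two-cell at 5.19, 0.0177 and 6.19 and in two-cell M at 1.73, 0.0461 and 9.98. The 3 M-phase changes on polysomes were 0.27 ± 1.76, -0.77 ± 1.76 and 0.68 ± 1.76. No comparison and no stage effect of Kif18b was called in the fit over all 36 libraries, with wide errors that leave room for changes of several fold. Of the other depolymerases, Kif2a, Kif19a and Kif24, none was tested, and the highest value among them was 0.581 FPKM.

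Kif20a, a midzone kinesin that brings the chromosomal passenger complex to the site of cleavage, was high in the non-polysome fraction of GV and on the polysomes of MII. GV polysomes held 0.724, 0.137 and 1.70 FPKM, while the GV non-polysome fraction held 18.4, 43.1 and 5.17. MII polysomes held 17.3, 8.21 and 13.0 FPKM, and MII non-polysome libraries 17.4, 6.996 and 2.98. The GV groups did not overlap between fractions, nor did GV and MII on polysomes, whereas the MII fractions overlapped. None of this passed the threshold. The polysome difference between MII and GV was 4.47 ± 1.82 (adjusted p = 0.167), the polysome against non-polysome difference in GV was -4.86 ± 1.82 (adjusted p = 0.123), and the difference between the changes in the 2 fractions was 5.64 ± 2.58 (adjusted p = 0.605). The MII against GV difference was called with 0.1 or 1 FPKM added, after quantile normalization, and in a fit of these 6 libraries alone. The difference between fractions in GV was also called with 0.1 or 1 FPKM added and after quantile normalization, at -5.67 in the last (adjusted p = 0.0145). In later stages Kif20a lay between 0.302 and 3.05 FPKM on zygote and zygote M polysomes and between the floor and 2.52 on two-cell and two-cell M polysomes.

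Kif23, the motor subunit of centralspindlin, was lower on the polysomes of later stages. It had 1.93, 2.75 and 2.17 FPKM in GV, 6.02, 3.10 and 0.890 in MII, 1.18, 1.77 and 1.27 in zygote, and 0.999, 0.814 and 0.472 in zygote M. In two-cell it had 0.415, 0.442 and 0.578, and in two-cell M 0.456, 0.246 and 0.0537. MII exceeded two-cell M by 3.81 ± 0.86 (adjusted p = 0.000595), a call kept in all 6 fits without a library and lost after quantile normalization, at 1.49 (adjusted p = 0.14). Outside polysomes the order differed. Two-cell libraries were low there, at 0.0625, 0.277 and 0.157 FPKM, and two-cell M libraries higher, at 4.54, 0.525 and 1.86, a rise of 3.56 ± 0.86 (adjusted p = 0.00179) that was called in all 6 fits without a library but not in a fit of these 6 libraries alone.

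In two-cell M the Kif23 level was thus lower on polysomes than outside them, with a difference of -3.17 ± 0.86 (adjusted p = 0.0121), and the M-phase change differed between the fractions by -4.94 ± 1.22 (adjusted p = 0.0125). The first call was lost without two-cell M polysome replicate C, at -2.29 (adjusted p = 0.0965), or non-polysome replicate A, at -2.44 (adjusted p = 0.0743). Both calls were lost with 1 FPKM added, after quantile normalization and in a fit of only the groups compared. Kif14, a cytokinesis kinesin that recruits citron kinase, had 0.0132 to 0.731 FPKM on polysomes, and no difference of it was called in the fit over all 36 libraries. MII against two-cell M gave 0.52 ± 1.57 (adjusted p = 0.799), which turned to a called -3.90 ± 1.09 after quantile normalization. Fits of only the groups compared called Kif14 between fractions in zygote and for the M-phase change on polysomes in zygotes relative to that in oocytes.

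Kifc1 (chr17:33875659-33890661), a minus-end motor that focuses spindle poles, was highest in zygotes. On polysomes it had 0.795, 2.18 and 1.80 FPKM in GV, 1.27, 1.80 and 1.77 in MII, and 2.95, 3.36 and 3.43 in zygote. In zygote M it had 0.239, 0.108 and 2.16 FPKM, in two-cell 0.519, 1.58 and 0.0170, and in two-cell M 0.01, 0.0969 and 0.01. All zygote libraries stood above all other polysome libraries. MII exceeded two-cell M by 6.22 ± 1.64 (adjusted p = 0.0025), a size set partly by the floor at which 2 of the 3 two-cell M libraries lay, and the call was lost after quantile normalization. The non-polysome level was 6.57, 4.42 and 8.78 FPKM in zygote and 0.01, 1.87 and 0.0128 in zygote M, a change of -6.67 ± 1.64 (adjusted p = 0.00811). Without zygote M non-polysome replicate A it was -5.36 (adjusted p = 0.0619), and it was not called in a fit of these 6 libraries alone. Kifc5b, a near-identical copy of Kifc1 on the same chromosome, was also highest in zygotes (0.402 to 0.776 FPKM on polysomes and 0.638 to 1.17 outside). How reads were divided between these copies is not given in the sources used here, so the values of both are uncertain.

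Kif17 (chr4:138250435-138301967), a transport motor known for carrying receptors along dendrites and for roles in male germ cells, varied little on polysomes from MII to two-cell. There it had 7.20, 6.24 and 3.26 FPKM in GV, 11.3, 9.45 and 11.5 in MII, 8.98, 11.3 and 12.2 in zygote, 9.41, 12.5 and 10.3 in zygote M, and 9.34, 12.3 and 11.6 in two-cell. In two-cell M it had 1.09, 0.578 and 1.08 FPKM. GV lay below the next 4 stages without overlap, and two-cell M below all others. The fall in two-cell M was -3.64 ± 0.60 (adjusted p = 3.26e-05) and MII exceeded two-cell M by 3.61 ± 0.60 (adjusted p = 1.65e-05). Both were called under all alternatives run. The median of all genes tested was -1.17 in two-cell M as deposited and 0.22 after quantile normalization, so the fall of Kif17 relative to all genes was smaller as deposited than its own value.

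The M-phase change of Kif17 in two-cell embryos was -4.67 ± 0.85 relative to that in oocytes (adjusted p = 0.000192) and -3.63 ± 0.85 relative to that in zygotes (adjusted p = 0.00257), and these too were called under all alternatives run. Outside polysomes Kif17 had 1.44, 1.12 and 1.65 FPKM in GV and 6.90, 7.95 and 9.59 in MII, a rise of 2.55 ± 0.60 (adjusted p = 0.00376) that was called under all alternatives. Two-cell non-polysome libraries held 4.90, 3.90 and 2.76 FPKM and two-cell M libraries 0.0164, 0.0146 and 0.136, a change of -6.88 ± 0.60 (adjusted p = 4.27e-10). Its size rests partly on values near the floor, and after quantile normalization it was -2.75, still called (adjusted p = 9.45e-05). The polysome excess in two-cell M was 4.79 ± 0.60 (adjusted p = 1.52e-06), not called with 1 FPKM added or in a fit of these 6 libraries alone. The fall was smaller on polysomes than outside them by 3.24 ± 0.85 (adjusted p = 0.0192). This call was lost with 0.1 FPKM added, at 1.22 (adjusted p = 0.244), and in a fit of only the groups compared (adjusted p = 0.536). The difference turned to -0.48 with 1 FPKM added and to -0.43 after quantile normalization.

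Kifc3, a minus-end motor of epithelial junctions and Golgi positioning, was low at all stages and lowest in two-cell M. Its polysome level was 0.839, 0.590 and 0.820 FPKM in GV, 1.44, 1.63 and 1.27 in MII, and 0.333, 0.233 and 0.391 in two-cell. The zygote and zygote M libraries lay between 0.281 and 0.841 FPKM. MII thus lay above all other polysome groups without overlap. In two-cell M the libraries were listed at 0.01, 0.01 and 0.0117, so that the called change of -4.88 ± 1.08 from two-cell (adjusted p = 0.000902) and the excess of 7.09 ± 1.08 in MII (adjusted p = 5.45e-06) are sized by the floor. The fall was not called with 1 FPKM added. Its M-phase change in two-cell embryos was -5.84 ± 1.53 relative to that in oocytes (adjusted p = 0.00595) and -5.37 ± 1.53 relative to that in zygotes (adjusted p = 0.0118), again called except with 1 FPKM added.

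Kif3a, the shared subunit of the heterotrimeric kinesins of cilia and transport, had 0.769, 0.403 and 1.27 FPKM on GV polysomes and 0.845, 0.430 and 0.150 in MII. Its two-cell M polysome libraries were at 0.01, 0.0140 and 0.01, and the difference between MII and two-cell M was 5.08 ± 1.48 (adjusted p = 0.00529). It was not called with 1 FPKM added or after quantile normalization, at 0.94 in the latter. The 14 transport kinesins that were not tested include the conventional kinesins Kif5b and Kif5c, with maxima of 1.05 and 0.470 FPKM, and the vesicle motors Kif1a, Kif1b and Kif1c, with maxima of 0.0331, 0.386 and 0.189.

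**Figure D3:**
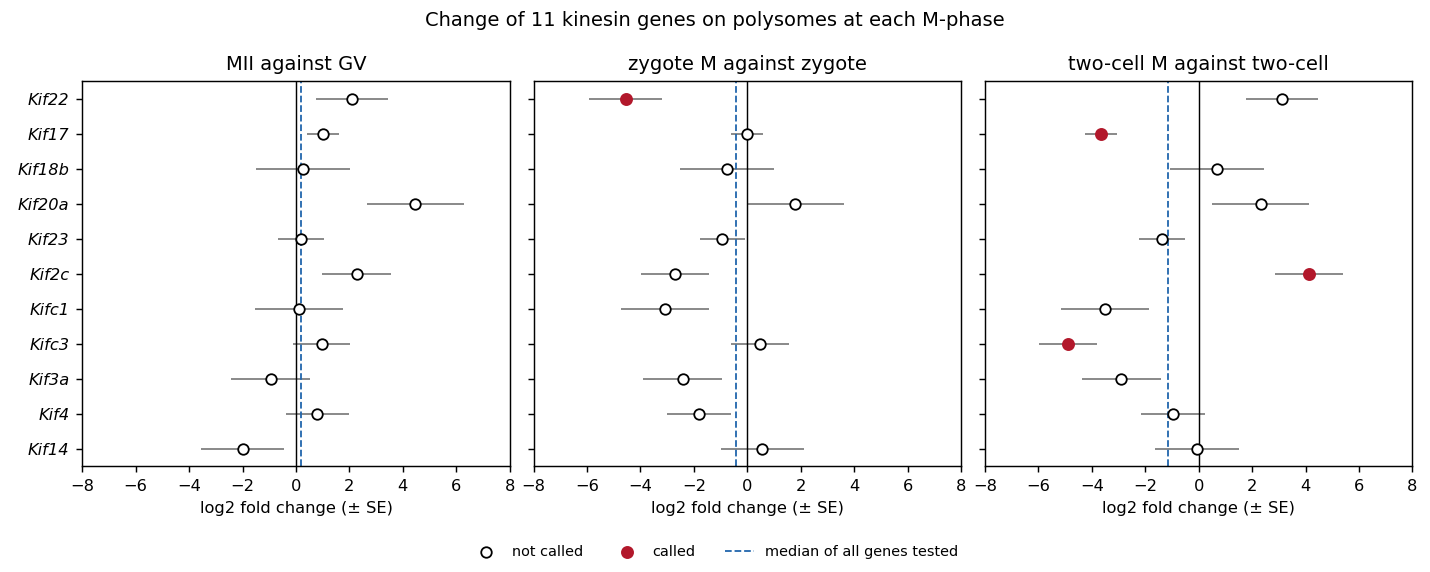
Points are log2 fold changes on polysomes with their standard errors for the 11 tested kinesins at 3 M-phases, filled where called by limma, with a dashed line at the median of all 7967 genes tested. No gene is called in MII, Kif22 is called in zygote M, and Kif17 and Kifc3 fall while Kif2c rises in two-cell M.

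The calls on polysomes were counted over the family for each entry into M-phase. In MII against GV, 0 of 11 were called by limma (1 at an unadjusted p below 0.05), against 6.11% of all genes. The median change of the kinesins was 0.80 and that of all genes 0.18. In zygote M against zygote, 1 of 11 fell (Kif22), against 5.75% of all genes called in either direction, with medians of -0.93 and -0.43. When two-cell M was set against two-cell, 1 rose (Kif2c) and 2 fell (Kif17 and Kifc3), against 36.3% of all genes, with medians of -0.96 and -1.17. The median of all genes was 0.22 there after quantile normalization, when Kif22 was called in addition. The 3 calls of 11 thus stand near the background, and only the direction of Kif2c ran against the median of all genes as deposited.

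Oocyte and embryo stages of the same phase were also compared on polysomes. GV against zygote gave 0 of 11 (0 at an unadjusted p below 0.05), against 5.61% of all genes. GV against two-cell gave 2 of 11, Kif22 and Kif2c, both higher in GV, against 16.7%. MII against zygote M gave 1 of 11, Kif22, against 12.4%. MII against two-cell M gave 7 of 11, all higher in MII (Kif17, Kif22, Kif23, Kif2c, Kif3a, Kifc1 and Kifc3), against 53% of all genes. The median of all genes was 2.64 in that comparison and 0.14 after quantile normalization, when 3 kinesins were called beside 45.7% of all genes. Of these, Kif17 and Kifc3 were higher in MII and Kif14 was lower, at -3.90 (adjusted p = 0.0043). Kif22 and Kif2c were the least secure of the 7, and Kif2c was kept in 1 of the 6 fits without a library, the one without two-cell M polysome replicate C, with adjusted p up to 0.102. Genes called higher in the oocyte outnumbered those called lower over all genes too, at 981 and 350 in GV against two-cell, 713 and 271 in MII against zygote M, and 3598 and 626 in MII against two-cell M. The kinesin counts stand near these backgrounds, and the comparisons share their GV or MII libraries.

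Outside polysomes, MII against GV gave 1 of 11 (Kif17 higher), against 16.6% of all genes. Zygote M against zygote gave 2 of 11 (Kif2c and Kifc1, both lower), against 10.4%. Two-cell M against two-cell gave 4 of 11, with Kif23, Kif2c and Kif4 higher and Kif17 lower, against 36.1%. As deposited, all 11 fold changes were below 0 in zygote M outside polysomes, where the median of all genes was -0.87. After quantile normalization that median was 0.20, and Kif14 and Kif20a were above 0.

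**Figure D4:**
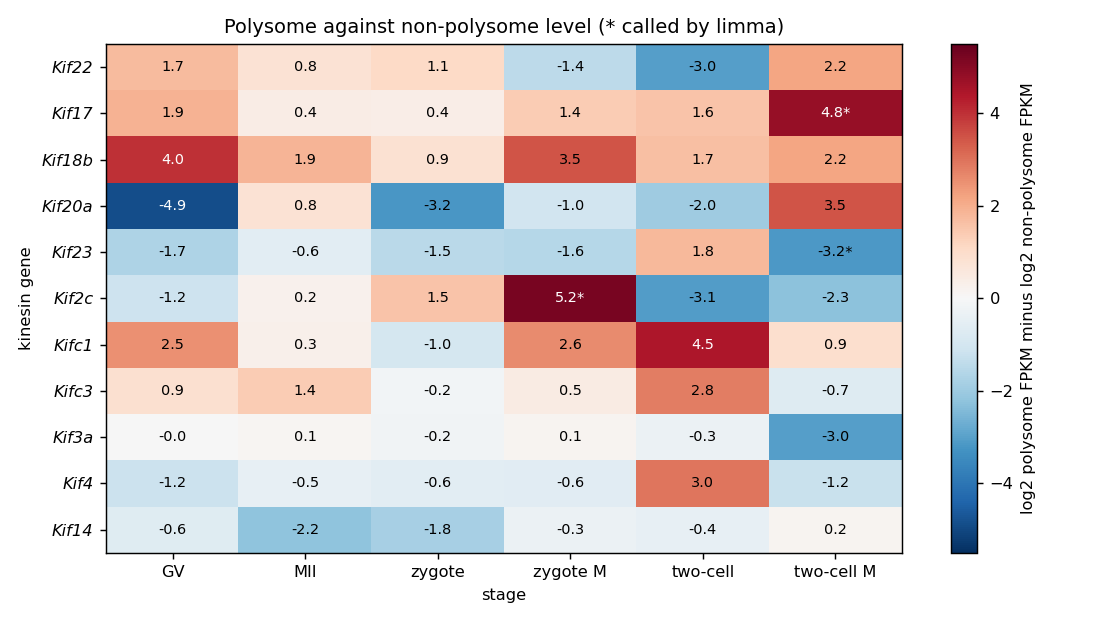
Cells give log2 polysome FPKM minus log2 non-polysome FPKM for the 11 tested kinesins at 6 stages, from red (more on polysomes) to blue (less), with an asterisk where called. The 3 asterisks stand at Kif2c in zygote M and at Kif17 and Kif23 in two-cell M.

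Polysome and non-polysome levels were compared within each stage. Each library is scaled to its own total, so the ratio is not the share of an mRNA on polysomes. In GV 0 of 11 kinesins were called (3 at an unadjusted p below 0.05), against 4.96% of all genes, in MII 0 (0 unadjusted), against 0.753%, and in zygote 0 (0 unadjusted), against 1.38%. In zygote M 1 was called, Kif2c, against 1.92%. In two-cell 0 were called by limma (7 at an unadjusted p below 0.05), against 16.1%. In two-cell M 2 were called, Kif17 higher and Kif23 lower on polysomes, against 14.8%. Kif18b and Kif17 were on the polysome side of 0 at all 6 stages, by 0.85 to 4.03 and by 0.38 to 4.79. Only the Kif17 value in two-cell M was called in the fit over all 36 libraries. With 0.1 or 1 FPKM added and after quantile normalization, the Kif17 excess was also called in GV and in two-cell. Requiring a mean of 1 FPKM gave that call in GV too.

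Whether M-phase changed the fractions differently was tested as an interaction. In MII against GV it gave 0 of 11 kinesins (1 at an unadjusted p below 0.05), against 0.163% of all genes, and in zygote M against zygote 0 (0 unadjusted), against 0.289%. In two-cell M against two-cell it gave 2, Kif17 and Kif23, against 5.75%. The M-phase change on polysomes differed between zygote and oocyte for 1 kinesin (Kif22), against 9.51% of all genes, between two-cell and oocyte for 2 (Kif17 and Kifc3), against 23.5%, and between two-cell and zygote for 4 (Kif17, Kif22, Kif2c and Kifc3), against 23.7%. A stage effect over the 6 polysome means was called by limma's F-test for 7 of 11 (Kif17, Kif22, Kif23, Kif2c, Kif3a, Kifc1 and Kifc3), against 62.9% of all genes. Outside polysomes it was 8 of 11, with Kif20a and Kif4 in and Kif3a out, against 78.3%.

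The proteins that work with these motors were followed from a list of 25 partners, of which 24 were in the table and 12 were tested. In MII against GV 1 partner of 12 was called on polysomes, against 6.11% of all genes. Prc1, the microtubule bundler of the midzone that recruits Kif4, had 0.640, 1.15 and 1.22 FPKM in GV and 2.85, 8.28 and 11.98 in MII, in rising order, a difference of 2.77 ± 0.76 (adjusted p = 0.0231) that was lost without GV polysome replicate B or MII replicate A or B. In zygote M against zygote 1 of 12 was called, against 5.75%. Tacc3, a spindle protein of kinetochore fibres, fell from 42.5, 44.6 and 54.6 FPKM to 1.86, 1.87 and 2.45, by 4.52 ± 0.73 (adjusted p = 9.95e-05), as Kif22 did in the same libraries. In two-cell M against two-cell 5 partners fell (Cep55, Klc2, Mapre2, Tacc3 and Trak1) and 0 rose, against 36.3% of all genes called, of which 2242 fell and 648 rose. The median was -2.41 over the 12 and -1.17 over all genes. The call of Cep55, a midbody protein, was kept in 3 of 6 fits and lost without two-cell polysome replicate A or B or two-cell M replicate A, at -3.74, -3.53 and -3.58 (adjusted p from 0.0533 to 0.0616). It was also lost with 0.1 or 1 FPKM added, after quantile normalization and in a fit of these 6 libraries alone. Klc2, a light chain of conventional kinesin, fell by 4.82 ± 1.18 (adjusted p = 0.00217), and Trak1, the adaptor between kinesin and mitochondria, by 3.82 ± 1.05 (adjusted p = 0.00576), and neither was called with 1 FPKM added or after quantile normalization. The call of Trak1 was also lost in a fit of these 6 libraries alone (adjusted p = 0.0513), as was that of Tacc3 (adjusted p = 0.0586), and that of Mapre2 with 1 FPKM added, at -0.36.

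The opposing motor, cytoplasmic dynein with dynactin, was listed with 32 genes, all in the table, of which 21 were tested. On polysomes 0 were called in MII against GV (2 at an unadjusted p below 0.05), 1 in zygote M against zygote, and 8 when two-cell M was set against two-cell, beside 6.11%, 5.75% and 36.3% of all genes. The last count stands near its background. Dynll1, a dynein light chain, fell in zygote M by 1.68 ± 0.32 (adjusted p = 0.000944), called in all 6 fits without a library. In two-cell M, 7 fell and 1 rose. Dctn2, the dynactin subunit dynamitin, fell by 6.57 ± 1.15 (adjusted p = 7.08e-05), and Dynll2 rose by 1.90 ± 0.45 (adjusted p = 0.00155), and both were called under all alternatives run. The other 6 were less stable. Dctn3 was kept only without two-cell M polysome replicate A and was -3.68 without replicate B (adjusted p = 0.201), with 5 of 8 other settings also losing the call. Actr1a was lost without two-cell M replicate B, at -3.62 (adjusted p = 0.0751), or C, at -3.93 (adjusted p = 0.0508), and Dctn5 without replicate A, at -3.55 (adjusted p = 0.119), or C, at -4.41 (adjusted p = 0.0572). Actr1a and Dctn5 were also lost in a fit of only the groups compared (adjusted p = 0.0519 and 0.111). Bicd2, Dynlt1a and Dynlt1b were kept in all 6 fits without a library and lost in 2, 2 and 1 of the other settings.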

How the data were processed

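The authors lysed cycloheximide-treated oocytes and embryos, separated 10 gradient fractions, prepared SMART-seq libraries, trimmed the reads with Trim Galore 0.4.1, mapped them to GRCm38 with STAR 2.5.3a, quantified them over RefSeq genes and deposited 1 table of FPKM values of 36 libraries. Why the smallest value is 0.01 is not given in the sources used here. For 2 of the 38 samples, both zygotes, no column was used. Counts are not part of the table used, so no counting error is given.

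Deposited FPKM were log2-transformed without a pseudocount and fitted by limma 3.58.1 in R 4.3.3 (empirical Bayes with a trend, 1 mean per stage and fraction, 24 residual degrees of freedom, two-sided), for 24 comparisons. The geometric mean minimum was 0.1 FPKM. The fit was tested on simulated data. Both fractions of a stage with the same replicate letter were read as pools of one gradient, since fractions were collected from each profile (mean residual r 0.0756, over 0.1 in 6 of 18 pairs). The fold changes of genes near the floor depend on the floor. Named with values are members called in any comparison and the 8 with the highest mean polysome FPKM. Other members are mostly given by ranges, maxima or counts, with values of single libraries for Kif20b and Kif3c. Those singled out (such as Kif11, Kif15, Kif20b, Kif3c and Kifc5b) were chosen after their values were seen. The members and gene lists were chosen with earlier results of these data known. Alternatives added 0.1 or 1 FPKM, dropped the filter, required a mean of 1 FPKM, applied quantile normalization, kept protein-coding genes or the compared groups only, blocked by replicate letter or gradient, and left out each library. Gene ends, exon lengths and sequences came from GENCODE M21 (Python 3.11.15, pandas 2.3.3). For 35 of 39 members the table and GENCODE give the same position once the stop is shifted by 1.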

Additional observations from a re-analysis of the deposited data

Results flagged for a closer look

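Each result here is a change that differed between 2 divisions or between the 2 fractions by a test of the difference itself (limma, log2 scale, adjusted over 7967 genes). The M-phase change of Kif17 on polysomes in two-cell embryos was -4.67 relative to that in oocytes (adjusted p = 0.000192) and -3.63 relative to that in zygotes (adjusted p = 0.00257). The M-phase change of Kif17 in two-cell embryos also differed between polysomes and the other fraction, by 3.24 (adjusted p = 0.0192), and this difference turned its sign with 1 FPKM added and after quantile normalization. Its call was also lost with 0.1 FPKM added, at 1.22 (adjusted p = 0.244), and in a fit of the compared groups alone (adjusted p = 0.536). For Kif22 the change in zygotes was -6.66 relative to oocytes (adjusted p = 0.0238), a call lost in 4 of the 12 fits that left out a library (GV polysome replicate B, MII C, zygote C or zygote M B, at -6.38, -6.56, -6.57 and -6.05), and the change in two-cell embryos was 7.69 relative to zygotes (adjusted p = 0.00431). For Kif2c the change in two-cell embryos was 6.84 relative to zygotes (adjusted p = 0.00681). For Kifc3 it was -5.84 relative to oocytes (adjusted p = 0.00595) and -5.37 relative to zygotes (adjusted p = 0.0118), with all 3 two-cell M polysome libraries at or next to the floor. For Kif23 the change in two-cell embryos was -4.94 on polysomes relative to the other fraction (adjusted p = 0.0125), and this call was lost with 1 FPKM added, at -1.57 (adjusted p = 0.153), after quantile normalization, at -2.92 (adjusted p = 0.157), and in a fit of the compared groups alone (adjusted p = 0.346). In the libraries behind the two-cell differences, the share of genes at the floor was 47.9% to 58.7% in two-cell M polysomes and 41.7% to 45.4% in two-cell polysomes. In the non-polysome libraries it was 59.9% to 63.1% in two-cell M and 50.5% to 55.8% in two-cell, and its part in these results was not tested.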

How the results depend on the processing

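Of 33 calls of single kinesins, 21 were kept in all fits without 1 library and 10 also under all other settings. Calls were lost with 1 FPKM added (12), in fits of only the compared groups (10), after quantile normalization (9), without a filter (6), with 0.1 FPKM added (3) and with the letter block (2). The difference between fractions in the M-phase change of Kif17 in two-cell embryos reversed, to -0.48 with 1 FPKM added and to -0.43 after quantile normalization. The cause was not tested. Keeping protein-coding genes only moved none of the 24 counts of called kinesins by more than 1.5 times. Depth is unknown, and values near the floor limit the size of low fold changes.

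In what follows, each count of called kinesins is followed in parentheses by the share of all genes called under the same setting. With 0.1 FPKM added, the counts became 1 (13.4%) for MII against GV and 2 (20.6%) for MII against zygote M. For polysome against non-polysome they became 2 (8.17%) in GV, 0 (1.73%) in zygote M and 1 (18.4%) for two-cell, with 1 (4.79%) for the difference between fractions in two-cell M and 2 (17.9%) for zygotes relative to oocytes. With 1 FPKM added they became, on polysomes, 3 (20.1%) for MII against GV, 3 (11.3%) for zygote M, 1 (26.9%) for two-cell M and 3 (22.3%) for MII against zygote M. Outside polysomes they became 2 (25.1%) for MII and 1 (10.9%) for zygote M, and between fractions 3 (12%) in GV, 1 (15.7%) for two-cell and 1 (14.1%) for two-cell M. The difference between fractions in two-cell M became 0 (5.4%), and zygotes and two-cell embryos relative to oocytes 2 (24.5%) and 1 (27%). Without a filter the polysome counts became 1 (2.88%) for MII against GV, 0 (3.08%) for zygote M and 1 (2.91%) for GV against zygote. The non-polysome counts became 2 (6.95%) for MII, 4 (5.12%) for zygote M and 13 (40.5%) for the stage effect, those between fractions 2 (1.88%) in GV, 2 (1.07%) in zygote M and 1 (6.23%) for two-cell, and that for two-cell embryos relative to oocytes 4 (10.3%). These last shares are of 23125 genes and the kinesin counts of 39. Requiring a mean of 1 FPKM gave 1 (5.93%) between fractions in GV and 1 (27.4%) for two-cell embryos relative to oocytes.

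Quantile normalization gave, on polysomes, 1 (19.4%) for MII against GV, 2 (14.6%) for zygote M, 1 (17.7%) for GV against zygote, 4 (25.8%) for GV against two-cell, 2 (26.1%) for MII against zygote M and 3 (45.7%) for MII against two-cell M. Between fractions it gave 2 (11%) in GV, 0 (3.59%) in zygote M, 2 (16.1%) for two-cell and 1 (7.86%) for two-cell M, with 0 (4.28%) for the difference between fractions in two-cell M and 2 (24.6%) for zygotes relative to oocytes. Fits of only the compared groups gave, on polysomes, 2 (27.1%) for MII against GV, 5 (33.1%) for zygote M and 5 (40.6%) for MII against zygote M, and outside them 2 (22.7%) for MII, 1 (10.5%) for zygote M and 1 (11%) for two-cell M. Between fractions they gave 5 (20.1%) in zygote and 0 (0.238%) in two-cell M, for the difference between fractions 1 (4.69%) in zygote M and 0 (1.37%) for two-cell M, and for zygotes relative to oocytes 4 (44.4%).

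Leaving out 1 library gave 0 to 0 for zygote M against zygote and 0 to 2 for GV against two-cell on polysomes, and 1 to 3 for zygote M and 2 to 4 for two-cell M outside them. Between fractions it gave 0 to 1 for zygote M, 0 to 3 for two-cell and 1 to 3 for two-cell M, and for zygotes relative to oocytes 0 to 1.

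No source states that a replicate letter links samples of different stages, and residuals of same-lettered polysome libraries of different stages correlated with a mean r of 0.0205. With the letter as a replicate block 0 kinesins were called in zygote M against zygote, where Kif22 was -4.50 (adjusted p = 0.106), and Kif22 was also lost in MII against two-cell M, at 3.18 (adjusted p = 0.0642). The latter count went from 7 to 6, and none of the other 14 moved by more than 1.5 times. With the gradient as a replicate block, which pairs the fractions of a stage, the 9 counts between fractions were the same as without it.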
